A study of Homo sapiens with 36 samples.

Results

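The data described here are ChIP-seq peaks at the HOX genes of DU145 cells, an established human prostate cancer line derived from a brain metastasis. The HOX genes lie in 4 clusters, and 38 of them, of 20163 protein-coding genes in the annotation, were chosen by name as members of these clusters: 10 in HOXA, 10 in HOXB, 9 in HOXC and 9 in HOXD. The study asked how PHF19, an accessory subunit of Polycomb repressive complex 2 (PRC2), acts on PRC2 and its mark in prostate cancer. It compared cells transduced with a control short hairpin RNA (shCTR) with cells carrying 1 hairpin against the long PHF19 isoform (shPHF19L#4), with 2 replicates of each target and condition among 36 samples. Chromatin was precipitated with antibodies to PHF19, to the PRC2 core subunits EZH2 and SUZ12, to MTF2, a relative of PHF19 that also joins PRC2, and to H3K27me3, the histone mark that EZH2 writes. In both groups the cells were DU145 infected with lentivirus and selected with puromycin. The deposited values used were 14 peak lists, 2 each for PHF19, EZH2 and SUZ12 in shCTR cells and 4 each for H3K27me3 and MTF2 in both conditions, and 5 tables of regions made by the authors with DiffBind. Peak lists of PHF19, EZH2 and SUZ12 in shPHF19L#4 cells, the inputs, the IgG controls and the RNA-seq are not analysed here, so neither the identity of the line nor the loss of PHF19 could be checked from expression. Depth per sample is unknown, as read totals are in none of the lists. All positions are on GRCh37 and counted from 1.

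HOX genes encode homeodomain transcription factors that give cells their position along the body axis, and their order on the chromosome follows the order of their expression domains. Genes of the same number in different clusters are paralogs, from the anterior groups at the 3' end of a cluster to the posterior groups at its 5' end. The clusters are classic Polycomb targets: PRC2 deposits H3K27me3 over the genes that a cell keeps silent, and in the prostate the posterior gene HOXB13 marks the lineage and works with the androgen receptor.

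A promoter was counted as occupied when at least 1 bp of a peak fell within 2.5 kb on either side of the gene's canonical start site. Of the 38 HOX promoters, 6 were in none of the 14 lists (HOXA4, HOXA9, HOXB3, HOXB4, HOXC6 and HOXD4), against 46.3% of all protein-coding genes. The median HOX promoter was in 3 lists (mean 3.66, range 0 to 11) and the median of all genes was in 1 (mean 1.72, range 0 to 14). At the top stood HOXD13 with 11 lists, HOXD11 with 10, and HOXB8 and HOXD12 with 9 each. HOXD13 and HOXD11 pattern the distal limb and the urogenital tract, and HOXB8 acts in the spinal cord and in blood progenitors. No test was made on these counts, because neighbouring HOX promoters share peaks and 2 replicates against 2 cannot give an exact permutation p below 0.333 (two-sided).

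**Figure D1:**
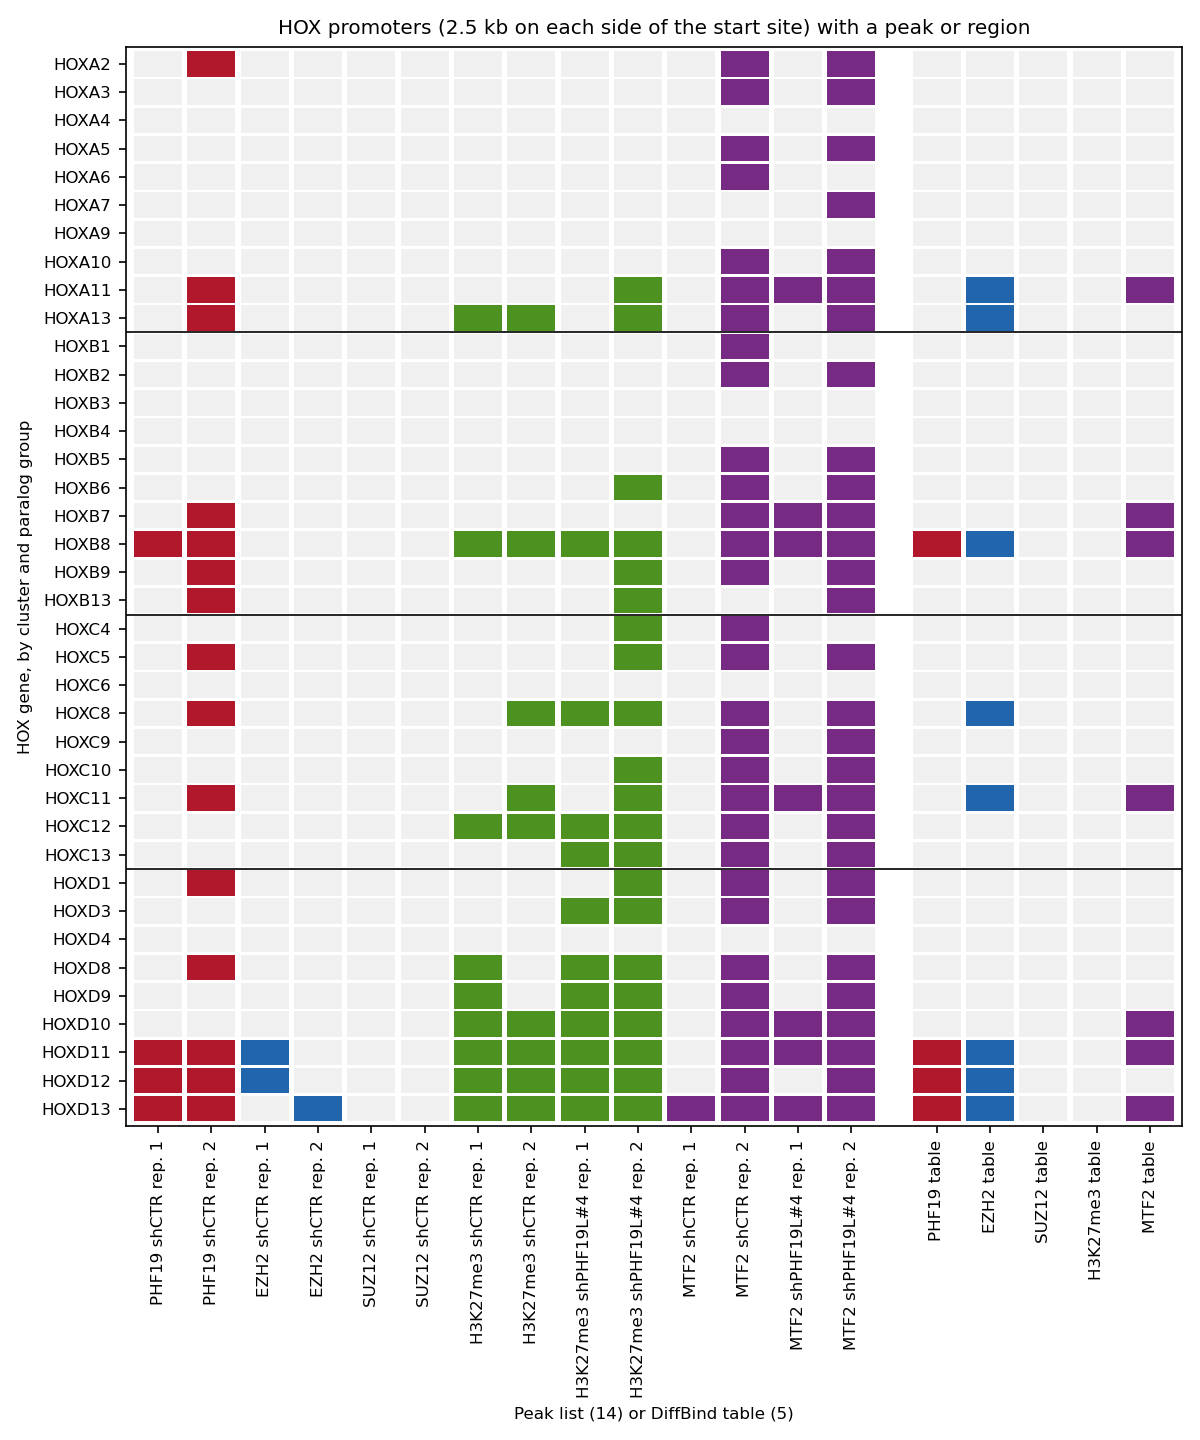
Each line is 1 of the 38 HOX genes, grouped by cluster from HOXA to HOXD, and each column is 1 of the 14 peak lists or 5 DiffBind tables, with a filled square where a peak or region lies within 2.5 kb of the start site. HOXD11, HOXD12 and HOXD13 are filled in 9 to 11 of the lists, and HOXA4, HOXA9, HOXB3, HOXB4, HOXC6 and HOXD4 in 0.

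Promoters of HOXA and HOXD at both ends of this range are shown here, 250 bases upstream of the start site in the gene's own direction, so that their sequence can be set beside the peaks. CpG dinucleotides, which the winged-helix domain of PHF19 and MTF2 is known to bind when unmethylated, are in capitals, and as CG reads the same on both strands each one counts for both. In both clusters the gene in the most lists is given first and the gene in the fewest follows. HOXA13, at chr7:27239711-27239960 on the minus strand, lies in an intron of the noncoding gene HOTTIP. HOXA9, at chr7:27205157-27205406 on the minus strand, lies in an intron of a longer HOXA9 transcript. HOXD13, at chr2:176957199-176957448 on the plus strand, lies between genes. HOXD4, at chr2:177016028-177016277 on the plus strand, lies in an intron of HOXD3.
HOXA13: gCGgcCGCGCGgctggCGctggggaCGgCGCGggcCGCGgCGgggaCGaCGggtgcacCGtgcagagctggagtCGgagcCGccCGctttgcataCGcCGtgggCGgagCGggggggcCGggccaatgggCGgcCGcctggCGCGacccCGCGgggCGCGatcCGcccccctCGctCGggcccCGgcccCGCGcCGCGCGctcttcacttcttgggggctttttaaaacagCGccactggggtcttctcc
HOXA9: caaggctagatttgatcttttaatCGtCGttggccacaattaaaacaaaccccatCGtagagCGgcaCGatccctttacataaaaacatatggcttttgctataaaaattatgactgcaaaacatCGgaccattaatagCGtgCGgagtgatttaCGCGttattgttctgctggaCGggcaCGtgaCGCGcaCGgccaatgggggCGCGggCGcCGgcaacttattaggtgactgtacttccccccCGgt
HOXD13: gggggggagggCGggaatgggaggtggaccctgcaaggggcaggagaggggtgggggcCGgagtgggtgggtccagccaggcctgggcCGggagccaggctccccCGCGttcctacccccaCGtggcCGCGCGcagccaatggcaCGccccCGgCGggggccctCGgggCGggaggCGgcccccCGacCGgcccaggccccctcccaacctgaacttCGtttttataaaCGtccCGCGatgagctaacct
HOXD4: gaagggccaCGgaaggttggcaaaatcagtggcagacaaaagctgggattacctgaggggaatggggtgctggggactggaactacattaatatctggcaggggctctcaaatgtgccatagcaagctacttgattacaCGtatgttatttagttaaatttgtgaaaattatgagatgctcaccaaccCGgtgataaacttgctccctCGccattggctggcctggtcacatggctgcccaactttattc

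The 250 bases upstream of HOXA13 held 40 CpG, the most among the 38 genes. HOXD13 had 21, HOXA9 20 and HOXD4 4. A stretch of this length held at least 1 CpG in 100% of the HOX genes (median 14) and in 96.9% of all protein-coding genes (median 18). In both clusters the gene in the most lists thus had more CpG than the gene in the fewest. HOXA4, in 0 lists like HOXA9, had 26, more than HOXD13 in 11 lists.

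PHF19 in control cells was listed at HOXB8 and at the posterior end of HOXD. In replicate 1, 4 of the 38 HOX promoters had a PHF19 peak (HOXB8, HOXD11, HOXD12 and HOXD13), or 10.5%, against 2.67% of all genes. In replicate 2 the list was longer, 14218 peaks against 1072, and it held 15 HOX promoters, or 39.5%, against 11.4% of all genes. The count in both replicates was 4, against 2.61% of all genes, and by replicate 2 alone it is 15. The added 11 were HOXA2, HOXA11, HOXA13, HOXB7, HOXB9, HOXB13, HOXC5, HOXC8, HOXC11, HOXD1 and HOXD8. In the table that compared PHF19 ChIP with input over both replicates, 4 HOX promoters had a region, against 3.59% of all genes, and they were HOXB8, HOXD11, HOXD12 and HOXD13 again. With the start site itself inside a peak or region, both counts fell to 2.

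At HOXB8 the only PHF19 peak of replicate 1 and the highest of 3 in replicate 2 lay upstream of the start site, within an intron of HOXB7. It had 102 tags in replicate 1, more than 77.2% of the peaks of that list, and a MACS score of 663 in replicate 2, above 97.6% of the peaks. The other 2 of replicate 2 were chr17:46690988-46692725, which covered the start site with a score of 102.1, and chr17:46689928-46690952, within the gene, with 85.9. In the DiffBind table the region at chr17:46693127-46696283 had a mean log2 read concentration of 7.18 in the ChIP and 5.81 in the input. Its ChIP level was near those of the HOXD13 regions, and its input level was the highest of the 5 HOX regions. Input minus ChIP was -1.37 there, the smallest gap of the 5, where the largest was -2.46.

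At HOXD13 a PHF19 peak covered the start site, with 47 tags in replicate 1 and a score of 709.6 in replicate 2. Another in replicate 2 lay immediately upstream, with a score of 614. The table listed both, at chr2:176952772-176956779 with a concentration of 7.20 in the ChIP and 4.95 in the input, and at chr2:176957046-176960682 with 6.92 and 4.84. HOXD12, the next gene, had its peak in the stretch between HOXD13 and HOXD12, with 54 tags in replicate 1 and a score of 713 in replicate 2. The HOXD12 region at chr2:176960858-176962739 had 6.66 in the ChIP and 4.20 in the input. At HOXD11 the region at chr2:176970097-176972911 spanned the start site, with 6.35 in the ChIP and 4.63 in the input. HOXD11 had 65 tags in replicate 1 and peaks with scores of 82.0 and 101 in replicate 2. In replicate 1 the peak at HOXB8 thus had the most tags of the 4 promoters, and it was also the widest, at 3038 bp. The peaks at HOXD13, HOXD12 and HOXD11 spanned 1462, 1607 and 2611 bp. They had more tags than 43.5%, 50.5% and 59.6% of the peaks of that list. In replicate 2 the highest scores at HOXB8, HOXD12 and HOXD13 were above at least 97.6% of the list, while the higher of those at HOXD11 was above 83.3%.

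Over the 5 HOX regions of the PHF19 table the median concentration was 6.92 in the ChIP and 4.84 in the input, and over all 1245 regions it was 6.42 and 4.82. The HOX regions had a median width of 3157 bp, against 2298 bp for all. All 5 overlapped a region of the EZH2 table (75.6% of all PHF19 regions did), 4 a region of the MTF2 table (73.3% of all), and 0 a region of the SUZ12 table (31.5% of all). Each of the 5 also overlapped a peak in all 4 H3K27me3 lists, as did 87.9% and 87.3% of all PHF19 regions in the shCTR lists and 80.4% and 93.6% in those of shPHF19L#4 cells.

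The middle 200 bases of these 5 regions are printed on the plus strand, CpG again in capitals, since they are where PHF19 was called against input over both replicates. They were chosen after their positions were known. The HOXB region 1 stretch, chr17:46694605-46694804, is intronic in HOXB7. The HOXD stretches, numbered along the chromosome, are chr2:176954676-176954875 and chr2:176961699-176961898 between genes (regions 1 and 3), chr2:176958764-176958963 in the intron of HOXD13 (region 2) and chr2:176971404-176971603 in an intron of HOXD11 (region 4).
HOXB PHF19 region 1: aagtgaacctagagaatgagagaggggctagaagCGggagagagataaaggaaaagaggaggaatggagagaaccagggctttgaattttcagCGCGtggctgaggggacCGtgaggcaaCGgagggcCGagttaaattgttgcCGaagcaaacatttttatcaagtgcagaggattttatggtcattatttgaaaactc
HOXD PHF19 region 1: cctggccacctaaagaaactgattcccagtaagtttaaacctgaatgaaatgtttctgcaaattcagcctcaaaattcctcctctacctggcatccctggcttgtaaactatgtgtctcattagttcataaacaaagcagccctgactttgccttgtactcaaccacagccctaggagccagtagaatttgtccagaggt
HOXD PHF19 region 2: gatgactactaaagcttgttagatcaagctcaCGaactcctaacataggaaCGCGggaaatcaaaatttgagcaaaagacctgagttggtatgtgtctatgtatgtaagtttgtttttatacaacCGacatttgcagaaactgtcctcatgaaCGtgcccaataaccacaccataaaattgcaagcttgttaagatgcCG
HOXD PHF19 region 3: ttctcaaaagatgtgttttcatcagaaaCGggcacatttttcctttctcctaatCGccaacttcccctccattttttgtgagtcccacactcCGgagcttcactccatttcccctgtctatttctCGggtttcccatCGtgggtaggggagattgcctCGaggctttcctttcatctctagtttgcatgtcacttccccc
HOXD PHF19 region 4: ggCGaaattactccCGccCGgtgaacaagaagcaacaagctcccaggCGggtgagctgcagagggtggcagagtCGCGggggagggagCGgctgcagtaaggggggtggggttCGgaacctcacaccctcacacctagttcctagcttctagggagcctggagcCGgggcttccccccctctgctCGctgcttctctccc

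These stretches held 7 CpG in HOXB region 1 and 0, 6, 6 and 10 in HOXD regions 1 to 4. The middle 200 bases of all 1245 PHF19 regions held a median of 11, and 97.5% held at least 1. The stretch without CpG, upstream of HOXD13, was the middle of the region with the highest ChIP concentration of the 5.

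The PRC2 core subunits were listed at few promoters in control cells, both of HOX genes and of all genes. EZH2, the catalytic subunit, had a peak at 2 HOX promoters in replicate 1 (HOXD11 and HOXD12), against 2.23% of all genes. It had a peak at 1 in replicate 2 (HOXD13), against 4.08%. None of the 38 had an EZH2 peak in both replicates, against 1.82% of all genes, and by 1 replicate alone the count is 1 or 2. With such low shares of all genes, these EZH2 counts among 38 are near the background. Taking the gene to its end instead of the promoter gave 1 in both. The scores were 98.3 at HOXD12 and 58.5 at HOXD11 in replicate 1, and 126 at HOXD13 in replicate 2. For SUZ12, the scaffold subunit, the count was 0 in replicate 1, against 0.362% of all genes, 0 in replicate 2, against 0.724%, and 0 in both, against 0.208%. The SUZ12 lists had 1523 and 232 peaks, and with such low shares of all genes a count of 0 among 38 is near the background.

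The authors' EZH2 table lists regions under a P threshold of 0.05 for shCTR against shPHF19L#4 cells, and 12 of its 2408 regions were in the HOX windows. These are the stretches that hold the clusters: chr7:27130000-27250000, chr17:46600000-46810000, chr12:54330000-54450000 and chr2:176940000-177060000. In each of the 12 the mean log2 concentration was higher in shPHF19L#4 than in shCTR cells, as it was in 2407 of all 2408, so the direction is that of the table. The median difference was 1.00 (range 0.62 to 1.41) in the HOX windows and 1.16 over all regions, and 9 of the 12 lay below the median of all. Median levels were 5.86 in shCTR and 6.87 in shPHF19L#4 cells in the HOX windows, and 6.15 and 7.29 over all regions. The table gives group means without a value per replicate, so no spread stands beside them. Counted by gene, 8 HOX promoters had an EZH2 region, against 7.65% of all genes: HOXA11, HOXA13, HOXB8, HOXC8, HOXC11, HOXD11, HOXD12 and HOXD13. All 8 were among the 15 promoters with PHF19 in replicate 2, as were 77.4% of the 1543 genes in the table. With the start site inside a region the count fell to 5, and with the start sites of all protein-coding transcripts it was 9.

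In HOXD, the region over the HOXD13 start site, chr2:176955547-176960506, had the highest EZH2 level of the 12, with 7.07 in shCTR and 8.02 in shPHF19L#4 cells. The largest difference of the 12 was at HOXD11, chr2:176970880-176974562, with 6.19 and 7.60. HOXD12 had 6.07 and 6.73 at chr2:176960886-176964103. The other HOXD regions were outside the promoter windows of the canonical HOX start sites. A region over the neighbouring homeobox gene EVX2, chr2:176944135-176946007, had 5.02 and 6.07, and a region upstream of HOXD13, chr2:176952086-176954703, had 5.89 and 6.72. The region over HOXD-AS2 and an untranslated region of HOXD3, chr2:177000282-177002359, had 5.56 and 6.50.

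In HOXA, the region over HOXA13, which patterns the hand, foot and genital tubercle, lay at chr7:27236761-27240647 with 6.24 in shCTR and 7.59 in shPHF19L#4 cells. HOXA11, a gene of limb and uterine development, had 5.81 and 6.67 at chr7:27223160-27225569. A region between them, chr7:27231336-27233591, had 5.73 and 6.83. The difference at HOXA13 was thus the largest of the 3 in HOXA.

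In HOXB and HOXC the EZH2 regions were 3. HOXB8 had the smallest difference of the 12, with 6.73 in shCTR and 7.35 in shPHF19L#4 cells at chr17:46693323-46697059. HOXC11, whose promoter window reaches the start site of the noncoding gene HOTAIR, had 5.82 and 6.92 at chr12:54366983-54369628. HOXC8, a gene of thoracic identity, had 5.65 and 6.91 at chr12:54402154-54404894. Of the 12 regions in all 4 clusters, 4 overlapped an EZH2 peak of control cells in either replicate and 8 overlapped none, where 50.9% of all EZH2 regions overlapped none.

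SUZ12 had no listed region in the HOX windows among 508, and the count of HOX promoters was 0, against 1.92% of all genes. Over all SUZ12 regions the median difference was 0.96.

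**Figure D2:**
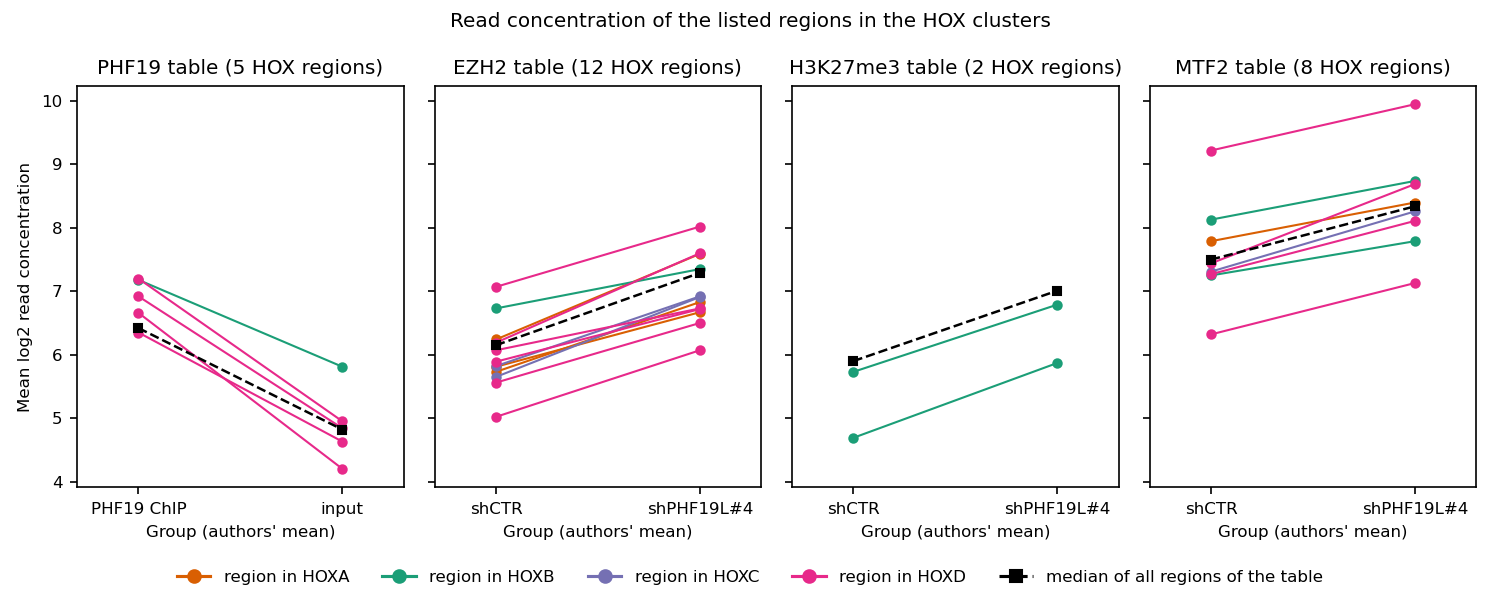
Each line joins the authors' mean log2 read concentration of 1 region in both groups of a DiffBind table, coloured by HOX cluster; the dashed line joins the medians of all regions. PHF19 is ChIP against input and the others are shCTR against shPHF19L#4. In the EZH2, H3K27me3 and MTF2 panels all 12, 2 and 8 HOX regions are higher in shPHF19L#4 cells.

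H3K27me3 in control cells covered the posterior end of HOXD and single genes in the other clusters. In replicate 1 it was listed at 9 HOX promoters, or 23.7%, against 13.8% of all genes, and in replicate 2 at 9, against 10.6%. The count in both was 7, against 9.08%: HOXA13, HOXB8, HOXC12, HOXD10, HOXD11, HOXD12 and HOXD13. HOXD8 and HOXD9 were in replicate 1 only, and HOXC8 and HOXC11 in replicate 2 only. With a peak in either replicate the count was 11, and with the start site inside a peak in both it was 2. Neither setting has a share of all genes beside it.

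In shPHF19L#4 cells H3K27me3 was listed at 11 HOX promoters in replicate 1, against 13.5% of all genes, and at 21 in replicate 2, against 22.0%. The count in both was 11, against 13.1%, and by replicate 2 alone it is 21. It fell to 7 with the start site inside a peak, and to 7 with peaks of a MACS score of at least 100. These 11 were HOXB8, HOXC8, HOXC12, HOXC13, HOXD3, HOXD8, HOXD9, HOXD10, HOXD11, HOXD12 and HOXD13. Within replicate 1, 8 promoters were listed in both conditions, HOXA13 in shCTR cells only, and HOXC8, HOXC13 and HOXD3 in shPHF19L#4 cells only. Of all genes, 11.4% were listed in both conditions there, 2.38% in shCTR cells only and 2.08% in shPHF19L#4 cells only. Within replicate 2, all 9 promoters of shCTR cells were also listed in shPHF19L#4 cells, with 12 more: HOXA11, HOXB6, HOXB9, HOXB13, HOXC4, HOXC5, HOXC10, HOXC13, HOXD1, HOXD3, HOXD8 and HOXD9. Of all genes, 10.4% were in both, 0.154% in shCTR cells only and 11.6% in shPHF19L#4 cells only. The difference of 9 against 21 in replicate 2 goes with lists of 15994 and 57026 peaks, and 9 against 11 in replicate 1 with lists of 39254 and 35128. The part of list length in these counts was not tested.

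HOXD13 and HOXD12 shared the widest H3K27me3 peak of the HOX windows in all 4 lists. In each list but that of shCTR replicate 2 this peak also reached over EVX2. It spanned 14212 bp with a score of 855 in shCTR replicate 1, and 6584 bp with 1083 in shCTR replicate 2. In shPHF19L#4 cells it spanned 22428 bp with 559 in replicate 1, and 27967 bp with 3100 in replicate 2. A score of 3100 is also the maximum of the EZH2 and H3K27me3 lists of shCTR replicate 2, while the list of this peak reached 3233. Whether 3100 is a ceiling of the score or an exact level was not tested. The width of a single peak depends on where calls were joined. In shCTR replicate 1 other peaks flanked it at chr2:176942667-176947150 and chr2:176962485-176964890, and in replicate 2 one at chr2:176952259-176957202 adjoined it. The score was lower in replicate 1 of shPHF19L#4 cells than in either shCTR replicate.

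At the promoter HOXA13 had scores of 109.7 and 434 in shCTR cells, no peak in shPHF19L#4 replicate 1, and 1641 in replicate 2. In shPHF19L#4 replicate 1 a peak with a score of 140 lay over an untranslated region of HOXA13, outside the promoter window. HOXB8 had 178 in shCTR replicate 1 and peaks of 57.6 and 98.0 in replicate 2, then 133 and 1337 in the shPHF19L#4 replicates. HOXC12 had 156 and 203 in shCTR cells and 200 and 1598 in shPHF19L#4 cells. In these 3 genes the highest score came from shPHF19L#4 replicate 2, the longest list, and the groups overlapped. HOXB13, the prostate lineage gene, had no H3K27me3 peak in 3 of the lists and a score of 209 in shPHF19L#4 replicate 2. Its PHF19 peak in replicate 2 had a score of 51.8 and its MTF2 peak in shPHF19L#4 replicate 2 one of 90.9, so its promoter was in 3 lists in all.

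The authors' H3K27me3 table had 2 of its 1049 regions in the HOX windows and 0 at a HOX promoter, against 2.32% of all genes. Both lay between HOXB9 and HOXB13. The region at chr17:46712343-46713591 had a concentration of 4.69 in shCTR and 5.87 in shPHF19L#4 cells, and that at chr17:46723204-46725874 had 5.73 and 6.79. Their median difference was 1.12, and that of all 1049 regions 1.13. Neither overlapped a peak of the shCTR lists or of shPHF19L#4 replicate 1, and both overlapped one in shPHF19L#4 replicate 2. Of all 1049 regions, 68.9% overlapped no peak of the shCTR lists, 50.1% overlapped one in shPHF19L#4 replicate 1, and 98.5% in replicate 2.

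MTF2 was the target whose HOX counts differed most between replicates. In shCTR cells it was listed at 1 HOX promoter in replicate 1 (HOXD13), against 3.95% of all genes, and at 30 in replicate 2, or 78.9%, against 37.4%. The lists had 2516 and 32254 peaks. The count in both was 1, against 3.87%, by replicate 2 alone it is 30, and with the start sites of all protein-coding transcripts it is 2. In shPHF19L#4 cells it was listed at 7 in replicate 1, against 7.68%, and at 29 in replicate 2, against 41.2%, from 4216 and 34623 peaks. The count in both was 7, against 7.58%, by replicate 2 alone it is 29, and with the start site inside a peak it is 4.

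Across conditions the MTF2 counts went from 1 to 7 in replicate 1 and from 30 to 29 in replicate 2. The promoters listed in replicate 1 of shPHF19L#4 but not of shCTR cells were HOXA11, HOXB7, HOXB8, HOXC11, HOXD10 and HOXD11, and of all genes 3.88% were so listed and 0.149% the other way round. In replicate 2, 27 were shared, HOXA6, HOXB1 and HOXC4 were in shCTR cells only, and HOXA7 and HOXB13 in shPHF19L#4 cells only, where the shares of all genes were 30.1%, 7.37% and 11.2%. Between replicates, 29 promoters in shCTR and 22 in shPHF19L#4 cells were listed in replicate 2 only. Of all genes, 37.4% in shCTR and 41.2% in shPHF19L#4 cells were listed in replicate 2, and 3.87% and 7.58% in both replicates.

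The authors' MTF2 table had 8 of its 2546 regions in the HOX windows, each higher in shPHF19L#4 cells, as were 2539 of all. The median difference was 0.77 (range 0.54 to 1.25), against 0.87 over all regions, and 6 of the 8 lay below that. Median levels were 7.38 and 8.33 in the HOX windows and 7.50 and 8.34 over all. By gene the table listed 7 HOX promoters, against 7.24% of all genes: HOXA11, HOXB7, HOXB8, HOXC11, HOXD10, HOXD11 and HOXD13. With the start site inside a region the count fell to 4, and with the start sites of all protein-coding transcripts it was 8.

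The MTF2 region over HOXD13, chr2:176952281-176960526, was 8246 bp wide and had 9.22 in shCTR and 9.95 in shPHF19L#4 cells. Its shCTR level was above 91.1% of the table. HOXD11 had the largest difference of the 8, with 7.44 and 8.69 at chr2:176970447-176973186, the gene that also had the largest EZH2 difference. HOXD10 had 6.32 and 7.13 at chr2:176981213-176983020. The region over HOXD-AS2 and an untranslated region of HOXD3 had 7.27 and 8.11 at chr2:177000077-177002468. HOXB8 had 8.13 and 8.74 upstream of its start site, at chr17:46693069-46697138. A region shared by the promoter windows of HOXB7 and HOXB8 had 7.25 and 7.79 at chr17:46689859-46692215. HOXA11 had 7.79 and 8.40 at chr7:27223142-27226389, and HOXC11 7.31 and 8.26 at chr12:54367042-54369989. Of the 8, 6 overlapped a region of the EZH2 table, against 77.4% of all MTF2 regions.

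By cluster, the median number of lists per gene was 2 in HOXA (range 0 to 6), 2.5 in HOXB (0 to 9), 4 in HOXC (0 to 6) and 6 in HOXD (0 to 11). By paralog class it was 2 for the 7 anterior genes (groups 1 to 3), 2 for the 15 central genes (groups 4 to 8) and 5 for the 16 posterior genes (groups 9 to 13). Without HOXD it was 4 for the 11 posterior genes and 2 for the 18 others. Among paralog groups, group 4 was lowest, with HOXA4, HOXB4 and HOXD4 in 0 lists and HOXC4 in 2. Group 8 had a median of 6 (HOXB8, HOXC8 and HOXD8), group 11 also 6 and group 12 7.5. HOXA9 was in 0 lists where its paralogs HOXC9, HOXB9 and HOXD9 were in 2, 4 and 5, so genes of the same group differed in their counts. The canonical start sites of HOXA3 and HOXB3 belong to long transcripts and lie among those of the central genes, at position 27192202 of chromosome 7 for HOXA3.

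The 6 promoters in 0 lists were not far from peaks. The nearest peak of any list was 2730 bp from the start site at HOXB4, 3019 at HOXA9, 3978 at HOXC6, 4435 at HOXD4, 4938 at HOXB3 and 5356 at HOXA4. HOXB4 and HOXA9 lay just outside the 2.5 kb window. The counts of 0 hold for the canonical start sites and not for the whole genes. A PHF19 peak of replicate 2 with a score of 149 lay over an untranslated region of HOXC6. H3K27me3 peaks of both shCTR replicates did so too. MTF2 peaks of shCTR replicate 2 lay over an exon of HOXA9 and an untranslated region of HOXB3. The 6 genes include regulators of blood stem cells, among them HOXB4 and HOXA9. At the fewest-list genes the 5 kb promoter windows held 271 CpG at HOXA9, 225 at HOXB4, 172 at HOXD4 and 137 at HOXC6, and at the most-list genes 286 at HOXA13, 228 at HOXB8, 224 at HOXC12 and 209 at HOXD13.

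Over the 38 genes the promoter window held a median of 219 CpG (range 96 to 331), against 145 over all genes (0 to 623). The ratio of observed to expected CpG had a median of 0.57, against 0.474. The median was 190 in the 16 HOX genes in 0 to 2 lists, 222 in the 10 in 3 or 4 lists, and 226 in the 12 in 5 or more. Across the 38 genes the Spearman coefficient between CpG count and number of lists was 0.33 and the Pearson coefficient 0.36. These are descriptions with no p: the genes are not independent, since windows overlap and all values come from the same libraries.

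**Figure D3:**
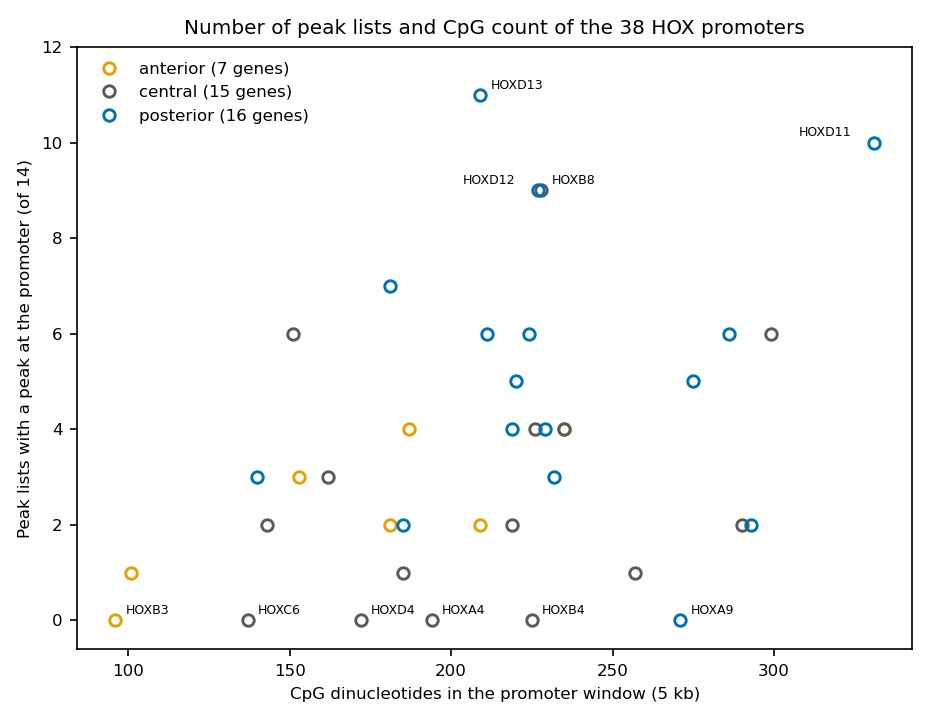
Each point is 1 of the 38 HOX genes, with the CpG count of its 5 kb promoter window on the horizontal axis and the number of the 14 peak lists with a peak there on the vertical axis, coloured by paralog class. HOXD13 is in 11 lists with 209 CpG, HOXD11 in 10 with 331, and HOXA9 in 0 with 271.

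Seen over whole windows, 120 kb each for HOXA, HOXC and HOXD and 210 kb for HOXB, peaks of PHF19, EZH2, H3K27me3 and MTF2 covered the posterior side of HOXD more than its rest in each of their 12 lists. The other clusters varied. H3K27me3 covered 15.4% and 5.93% of the 4 windows in the shCTR replicates, 10.7% ± 6.73 (SD, n = 2). In shPHF19L#4 cells it covered 13.8% and 27%, 20.4% ± 9.27 (SD, n = 2). The values of the groups overlapped. Genome-wide the same lists covered 108 and 30.4 Mb in shCTR cells and 96.9 and 159 Mb in shPHF19L#4 cells. The share of the HOX windows was 4.42 and 6.03 times that of the genome in shCTR cells, and 4.43 and 5.23 times in shPHF19L#4 cells. The list of shPHF19L#4 replicate 2 thus covered the most both in the HOX windows and in the genome.

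HOXD had the highest H3K27me3 share in all 4 lists. Its window was covered at 44.6% and 14.4% in shCTR cells and at 44.3% and 51.6% in shPHF19L#4 cells. HOXC followed with 11.5% and 6.24%, then 10.7% and 34.3%. HOXA had 10.9% and 4.97%, then 3.87% and 17.9%, and HOXB 3.64% and 1.49%, then 3.96% and 13.8%. In each cluster the highest value was that of shPHF19L#4 replicate 2, while in replicate 1 the conditions differed by less than 1 percentage point in HOXB, HOXC and HOXD.

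Each window was also split halfway between the start site of its group 9 gene and the next central gene. This division was chosen after the values had been seen. The sides differ in size and gene number. In HOXB the posterior side was 111.8 kb with 2 genes, and the rest 98.2 kb with 8. In HOXA, HOXC and HOXD the posterior side was 49.3, 68.4 and 50.9 kb with 4, 5 and 5 genes. H3K27me3 covered 24.0% and 10.1% of the posterior side in shCTR cells, against 7.13% and 1.9% of the rest. In shPHF19L#4 cells it covered 19.5% and 42.4%, against 8.37% and 12%. In HOXD the posterior side was covered at 80.1% and 33.8%, then 80.9% and 87.9%. In HOXA the rest was covered at 0% in all 4 lists. HOXB had the reverse in 3 of the 4 lists, with 2.06% posterior against 5.44%, 0% against 3.18%, and 1.44% against 6.84%, where peaks around HOXB8 lay on the other side. The fourth list, shPHF19L#4 replicate 2, had 19.0% against 7.82%. In HOXC, shPHF19L#4 replicate 1 had 10.6% posterior against 10.8% of the rest. Without HOXD the posterior side had 11.6% and 4.83% in shCTR cells, against 3.61% and 2.49%, and 5.89% and 32.3% in shPHF19L#4 cells, against 5.57% and 8.01%.

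MTF2 covered 1.52% and 23.3% of the windows in shCTR cells, 12.4% ± 15.4 (SD, n = 2), and 4.72% and 31.9% in shPHF19L#4 cells, 18.3% ± 19.2 (SD, n = 2). Within each replicate the share was higher in shPHF19L#4 than in shCTR cells, and so was the genome covered, 5.98 and 46.6 Mb against 11.0 and 59.0 Mb. Relative to the genome, the HOX windows had 7.85 and 15.5 times its share in shCTR cells, and 13.3 and 16.7 times in shPHF19L#4 cells. On the posterior side MTF2 covered 2.5% and 29.0% in shCTR cells and 6.45% and 42.5% in shPHF19L#4 cells, against 0.565% and 17.7%, then 3.05% and 21.6% of the rest. By share HOXB was the exception. It had 20.9% of the rest against 13.2% posterior in shCTR replicate 2, and 6.55% against 0% in shPHF19L#4 replicate 1. In shPHF19L#4 replicate 2 it had 22.4% of the rest against 20.5% posterior. In kb the order there was the other way, 22.0 against 22.9, as the posterior side of HOXB is the longer. Without HOXD, shCTR replicate 1 had no MTF2 peak in the windows, and shPHF19L#4 replicate 1 had 2.7% posterior against 2.91%. The replicates 2 had 25.4% against 19.3% in shCTR and 35.1% against 20.1% in shPHF19L#4 cells.

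PHF19 covered 1.98% and 7.06% of the windows, 4.52% ± 3.59 (SD, n = 2), which was 28.7 and 13 times its share of the genome. EZH2 covered 0.784% and 0.332%, all of it in HOXD, or 5.92 and 3.29 times its share of the genome. SUZ12 covered 0%. In replicate 1 the PHF19 peaks lay in HOXB and HOXD alone, with HOXA and HOXC at 0%. In replicate 2 they covered 7.51% of HOXA, 5.39% of HOXB, 5.78% of HOXC and 10.8% of HOXD. The posterior side of HOXB had less PHF19 than its rest in both replicates, 0% against 3.09% and 3.81% against 7.19%. Without HOXD the posterior side had 0% against 1.38% in replicate 1 and 7.04% against 5.04% in replicate 2.

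**Figure D4:**
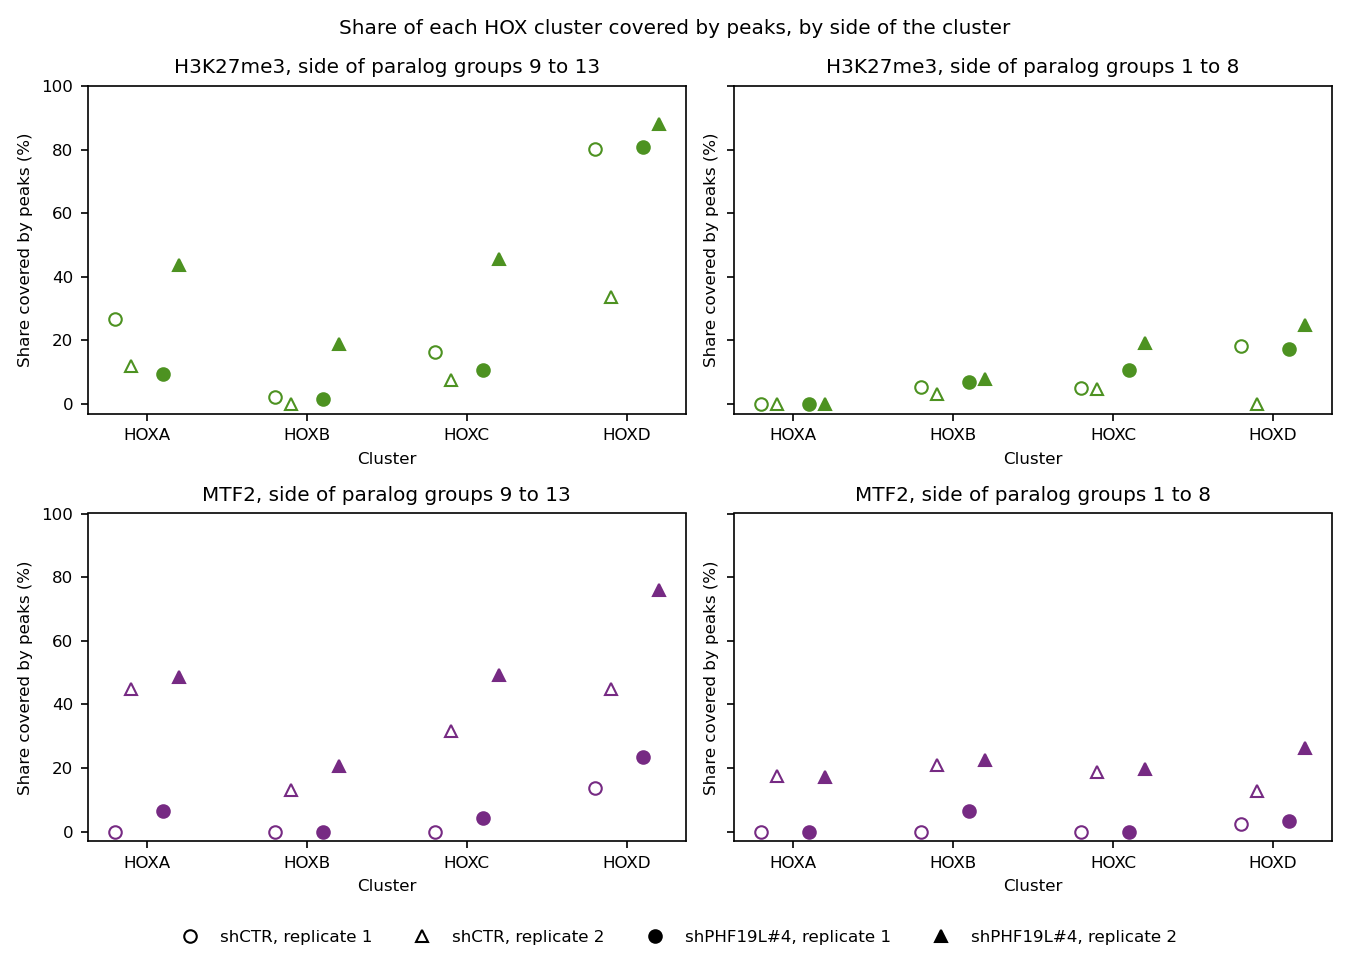
The share of each HOX cluster window covered by H3K27me3 or MTF2 peaks (percent) is plotted for the side of paralog groups 9 to 13 and for the side of groups 1 to 8; open symbols are shCTR, filled symbols shPHF19L#4, circles replicate 1 and triangles replicate 2. The H3K27me3 share of posterior HOXD is 80.1%, 33.8%, 80.9% and 87.9% in the 4 lists.

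Peaks in the windows were partly away from HOX start sites. The HOX promoter windows, which overlap, took up 32.5% of the cluster windows. Of the 26 PHF19 peaks of replicate 2 in the windows, 21 were at a HOX promoter; over the genome 17.7% of that list were at the promoter of a protein-coding gene. Of the 44 H3K27me3 peaks of shPHF19L#4 replicate 2, 26 were at a HOX promoter and 18 elsewhere, against 9.5% at a promoter over the genome. Of the 67 and 69 MTF2 peaks in replicate 2 of each condition, 37 and 34 were at one, against 24.8% and 25.0% over the genome. The part of the genome within promoter windows was not counted, and promoters are dense in the clusters. The shares over the genome are thus not a like measure. An EZH2 peak of replicate 1 lay over HOXD-AS2 and a HOXD3 untranslated region, at chr2:177000902-177002129 with a score of 78.6. MTF2 was listed at the HOXD-AS2 promoter in all 4 lists.

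**Figure D5:**
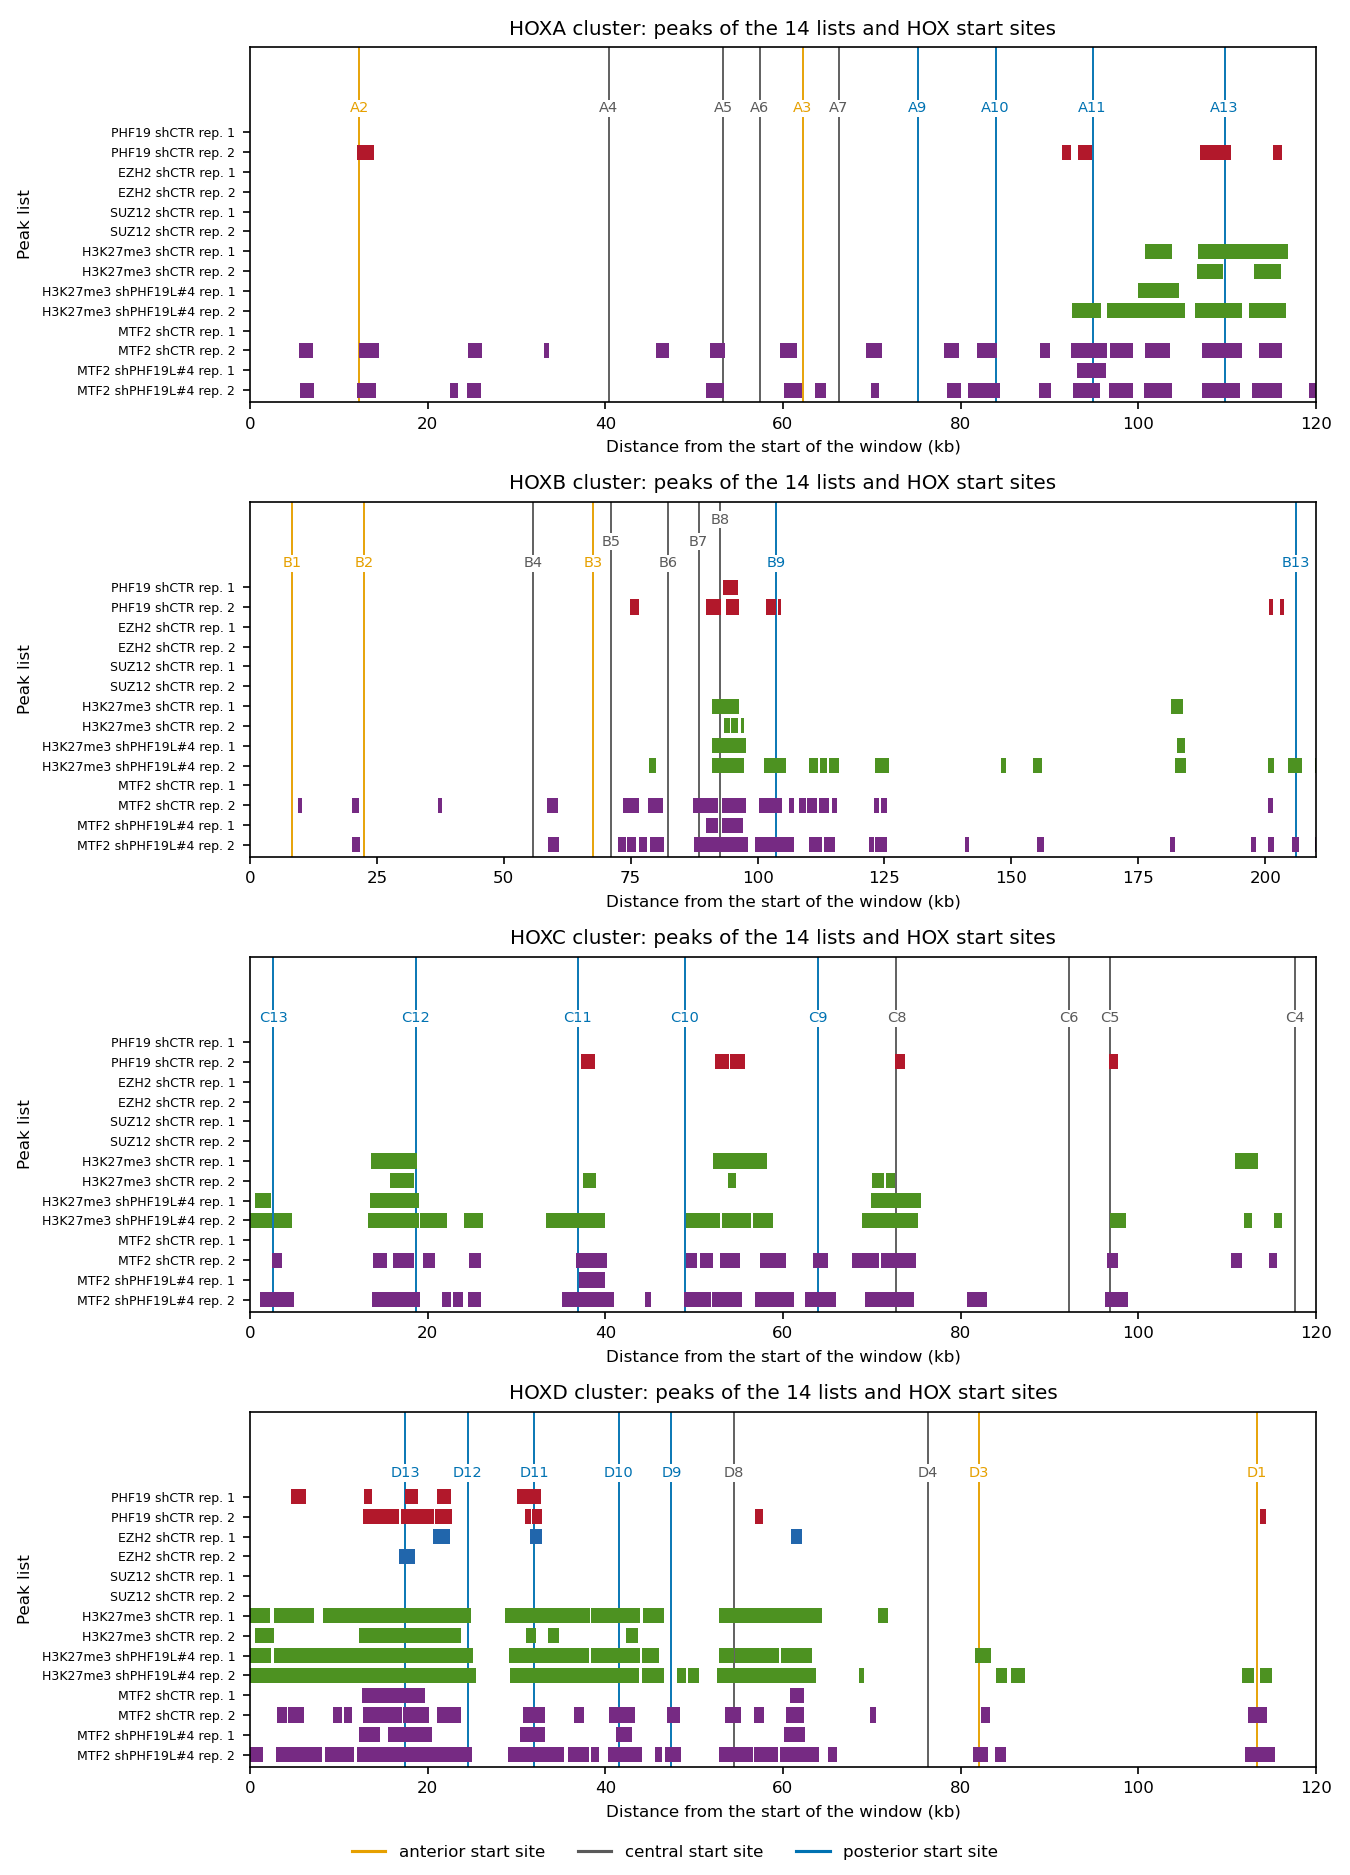
Peaks of the 14 lists are drawn as bars along each HOX cluster, with distance from the start of the window in kb on the horizontal axis and vertical lines at HOX start sites coloured by paralog class. The bars of HOXD crowd around HOXD13 to HOXD10, and the SUZ12 lines are empty in all 4 clusters.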

How the data were processed

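The deposited peak lists and tables of 5 ChIP targets in DU145 cells (H3K27me3, MTF2, PHF19, EZH2 and SUZ12) were read with Python 3.11.15, pandas 2.3.3, numpy 2.4.6 and pysam 0.24.0; samtools 1.23.1 indexed the genome and matplotlib 3.10.9 drew the figures. Per the study's methods, the authors aligned reads with Bowtie to hg19, joined with fly dm3 for samples with spike-in, keeping unique alignments. They called peaks per replicate with MACS against a control, and compared groups with DiffBind. No version is stated. In 11 lists the deposited value is a MACS score (minimum 50), in the list of PHF19 replicate 1 the deposited value is a tag count, and the MTF2 lists of replicate 1 (2 of the 14) give coordinates without a value, so peak values are not compared between these kinds. In the tables the authors give the mean log2 read concentration of each group. Of the tables, 4 carry 2 header lines, and the last, which names the knockdown, was used. They also hold fold, P value and FDR columns, the authors' own comparison, which were not used. The PHF19 table sets ChIP against input, the others shCTR against shPHF19L#4. For the latter the methods name runs on pairs of replicates over the peaks of both conditions joined, with P under 0.05, and neither a block nor the kind of test. Each lists only regions under the authors' threshold, so its regions are described and not tested.

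Fly chromatin is named in the methods as the scale of plots. By the labels a fly antibody was added for H3K27me3 and MTF2 in both replicates, for PHF19 only in replicate 2, and only in replicate 1 for SUZ12 and EZH2. The paper differs from the labels here. Its methods name the spike-in for these targets except PHF19 without a limit to 1 replicate, and it scales replicate 2 of EZH2 and SUZ12 by fly reads. No scaling is named for the peak lists or tables. The labels do not say whether replicates were grown apart, though the paper calls them biological.

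Start sites came from the canonical transcripts of GENCODE release 44 mapped to GRCh37. A promoter counted when at least 1 bp of a peak lay within 2.5 kb on either side, and the overlap code was tested on simulated intervals. Samples were grouped by target, condition and replicate as labelled. Alternatives for the sites were a narrower window of 1 kb, the start site itself, the whole gene, and the start sites of all protein-coding transcripts. Others were either replicate, and each replicate or cluster left out. A mean weighted by region width, windows from the first to the last HOX gene, and a score of at least 100 were also used. Genes described in full were those with a region of the PHF19 table at the promoter and, in each cluster, those in the most and the fewest lists, the more posterior where tied; others named were chosen after their values were seen. Upstream sequence was to be shown for the genes in the most and fewest lists; that of HOXB4 overlaps an annotated untranslated region, and some other sequences and a gene of a list are not reported here. The members and gene lists were chosen with earlier results of these data known.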

Additional observations from a re-analysis of the deposited data

How the results depend on the processing

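Of 104 alternative values for 19 results, 22 moved and 0 reversed. All 22 were among the 73 counts, where the other 51 stayed within 1.5 times; 10 of these were counts of 0 under a stricter setting, which cannot move, so 41 of 63 stayed. With the start site itself inside a region or peak, the HOX count fell to 2 for the PHF19 table, 5 for the EZH2 table and 4 for the MTF2 table. For both replicates it fell to 2 for PHF19, 2 and 7 for H3K27me3 in shCTR and shPHF19L#4 cells, and 4 for MTF2 in shPHF19L#4 cells. With a peak in either replicate it was 15 for PHF19, 3 for EZH2, 11 and 21 for H3K27me3 and 30 and 29 for MTF2 in shCTR and shPHF19L#4 cells. Taking the whole gene gave 1 for EZH2, and the start sites of all protein-coding transcripts gave 2 for MTF2 in shCTR cells. A score of at least 100 gave 7 for H3K27me3 in shPHF19L#4 cells. With 1 replicate left out at a time the counts ran from 4 to 15 for PHF19, 1 to 2 for EZH2, 11 to 21 for H3K27me3 and 7 to 29 for MTF2 in shPHF19L#4 cells, and 1 to 30 for MTF2 in shCTR cells. Beyond the smaller or larger choice of sites and lists that each setting makes, the cause was not tested. Shares of all genes were counted for the main setting and for each replicate only.

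The 8 covered shares with a replicate left out lie within 1 SD of a mean of 2 by construction, so they say nothing on stability: H3K27me3 ran from 5.93% to 15.4% in shCTR and from 13.8% to 27% in shPHF19L#4 cells, MTF2 from 1.52% to 23.3% and from 4.72% to 31.9%. The other 10 were within that wide SD. HOXD left out, chosen after seeing the data, took H3K27me3 from 10.7% to 5.68% and from 20.4% to 13.1%, and MTF2 from 12.4% to 11.2% and from 18.3% to 15.3%. The tables have no replicates, so the 13 values of the concentration differences were set against 1 SD across HOX regions, a bar that a median hardly crosses. They ran from 0.94 to 1.1 for EZH2 and from 0.61 to 0.82 for MTF2, each end with a cluster left out, and the 1 for H3K27me3 was 1.1. The SUZ12 difference has no HOX region and so no value, and for H3K27me3 neither the promoter regions alone nor leaving out HOXB gave one. The score setting was not run for PHF19 and MTF2, whose lists lack MACS scores in replicate 1. The methods pair replicates by number, but no paired test was made, since 2 pairs cannot give an exact p below 0.5 and the tables hold no values per replicate; shares and counts are given within each replicate instead. Unknown depth and lists of very different length limit each comparison of counts.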

Other observations

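Genes around the HOX system were counted in the same way, in 6 lists, beside a median of 1 list for all protein-coding genes. The TALE cofactors, homeodomain proteins that bind DNA together with HOX proteins, had a median of 2 lists over 8 genes, and 6 of the 8 were in at least 1, where 46.3% of all protein-coding genes were in 0. MEIS3 and PKNOX2 were in 11 lists each, as many as HOXD13, and both had a region of the PHF19, EZH2 and MTF2 tables at the promoter, as did 3.59%, 7.65% and 7.24% of all genes, each table by itself. PBX2 and PBX4 were in 0 lists, and these genes are named after their values were seen. Among the 3 CDX genes, which activate HOX genes in the embryo, CDX2 was in 11 lists and CDX1 and CDX4 in 1 each.

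Of the ParaHox genes, relatives of the HOX genes outside the clusters, 3 were counted apart from the CDX genes above. GSX2 was in 11 lists, GSX1 in 7 and PDX1 in 6. All 3 had an MTF2 table region, 2 an EZH2 table region (GSX1 and GSX2) and 1 a PHF19 table region (GSX2), beside the same shares of all genes. EVX1 and EVX2, homeobox genes beside HOXA13 and HOXD13, were in 5 and 6 lists, and EVX1 had a region of the EZH2 and MTF2 tables. The 9 genes flanking the clusters had a median of 1 list (range 0 to 4), and 0 of them had a peak in both replicates of any target and condition or a region of any table, where the shares of all genes were 0.208% to 13.1% and 1.92% to 7.65%, so that 0 of 9 is near the background. PRAC1, the flanking gene in 4 lists, lies within the HOXB window beside HOXB13. The 12 noncoding genes within the clusters had a median of 3 lists (range 0 to 8), and 9 of the 12 were in at least 1; the only background at hand is that of protein-coding genes, 46.3% of them in 0. HOXD-AS2 was in 8, and HOTTIP and HOTAIR in 6 each, at the start sites beside HOXA13 and HOXC11. An EZH2 table region lay at 4 of the 12 promoters, HOTTIP, HOXA11-AS, HOTAIR and HOXD-AS2, and an MTF2 table region at 3, HOXA11-AS, HOTAIR and HOXD-AS2, against 7.65% and 7.24% of protein-coding genes.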
